A study of Mus musculus with 90 samples.

Results

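The DNA damage response and repair genes described here are 46 mouse genes that sense lesions in the genome, relay the alarm to the cell cycle, and mend the DNA. They were taken from the count table by symbol, and all 46 were found among its 24422 genes. They cover 12 roles: damage signalling, the p53 pathway, the MRN complex, homologous recombination, RecQ helicases, end joining, repair of single-strand breaks, base excision, mismatch repair, the Fanconi anaemia pathway, nucleotide excision and post-replication repair. The study removed the maternal supply of Plag1, a zinc finger transcription factor, and asked how mouse embryos then pass from the egg to the 8-cell stage. Each of its 90 libraries holds the RNA of a single metaphase II (MII) oocyte, 2-cell (2c) embryo or 8-cell (8c) embryo, counted by molecular tags at the 5′ ends of transcripts, beside a fixed amount of spike-in RNA. All mice were of the CD-1 strain. WT oocytes and embryos came from wild-type females, and matPlag1KO ones from females in which lacZ replaces the open reading frame of Plag1. The knockout females were mated with wild-type males, so that matPlag1KO embryos at 2c and 8c are heterozygous by the cross, while matPlag1KO MII oocytes come straight from knockout ovaries. Females were 1 to 3 months old and received 5 IU of pregnant mare serum and 5 IU of chorionic gonadotropin (hCG). MII oocytes were taken 21 to 23 h after hCG without culture, 2c embryos at 45 to 47 h and 8c embryos at 71 to 73 h, both after culture in KSOM medium.

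Cells answer broken DNA through the kinases Atm and Atr, which pass the signal to Chek2 and Chek1 and to the transcription factor p53, held low by Mdm2 and Mdm4. Breaks of both strands are joined end to end or copied back from the sister chromatid, while damaged bases, mispaired bases, bulky adducts and crosslinks each have their own repair pathway. A fully grown oocyte stores repair transcripts for the divisions before the embryonic genome is active, and much of this maternal RNA is degraded around the 2-cell stage as the embryo begins its own transcription.

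The libraries differed in depth between stages. WT libraries held a median of 395023 gene counts at MII (222357 to 2502421, n = 16), 148473 at 2c (116914 to 194287, n = 11) and 564009 at 8c (264386 to 696870, n = 15). The matPlag1KO libraries held 649899 at MII (438233 to 1772844, n = 14), 163626 at 2c (92475 to 256529, n = 11) and 393914 at 8c (214053 to 664771, n = 11). A single count in a WT 2c library of median depth stands for 6.74 CPM (counts scaled to the same total in every library), against 2.53 at MII and 1.77 at 8c, so that low levels are least visible at 2c. These n are the 78 libraries kept. The other 12 were left out for a median CPM under 1 across genes: their depth was 83 to 231731 with a median of 6198, and a median of 6 of the 46 genes had a count in them (0 to 36). Their ranges overlap those of the kept libraries, whose lowest depth was 92475 and whose fewest genes with a count were 30. The 12 left out were 2 of 16 matPlag1KO MII, 3 of 14 WT 2c, 3 of 14 matPlag1KO 2c and 4 of 15 matPlag1KO 8c libraries, with 6 in each of libA and libB, the pooled libraries named in the labels. The donor female of each library is not named in the labels, so that p-values are over embryos and embryos of 1 female cannot be grouped.

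Plag1 itself was low in matPlag1KO at MII and high there at 2c. In WT it had a median of 24.3 CPM at MII (2.32 to 143, a count in 16 of 16 libraries), 0 at 2c (0 to 4.32, 1 of 11) and 0 at 8c (0 to 12.2, 5 of 15). In matPlag1KO libraries its median was 0 at MII (0 to 3.28, 3 of 14), 35.7 at 2c (0 to 90.2, 9 of 11) and 0 at 8c (0 to 6.50, 4 of 11). Since the males were wild-type, matPlag1KO embryos carry a paternal copy of Plag1, and counts of it at 2c do not go against their label. The Plag1 difference of matPlag1KO from WT was -5.64 on the log2 scale at MII (SE 0.65, adjusted p = 1.48e-10) and 5.59 at 2c (SE 0.94, adjusted p = 0.000127). Which allele gave the counts at 2c was not tested. Stage markers followed the stage labels: the summed CPM of 9 oocyte markers averaged 10468 in WT at MII, 3456 at 2c and 135 at 8c, that of 2-cell markers 3.29, 318 and 1.09, and that of 8-cell markers 721, 1449 and 7875. Of 12 cumulus or granulosa cell markers 6 were at 0 in WT MII libraries and their summed CPM averaged 22.3, most of it Cyp19a1 (16.8).

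Levels below are CPM on TMM library sizes, which give a gene's share of the RNA counted in a library, or counts per 1000 spike-in counts, called the spike-in scale, which follow the amount of RNA per oocyte or embryo. Counts of 5′ ends are not divided by transcript length. By its stage name an oocyte is 1 cell and an embryo 2 or 8, so that a value on the spike-in scale is per oocyte or embryo and not per cell. The test throughout is edgeR's quasi-likelihood F test, adjusted by Benjamini-Hochberg over the 16511 genes tested, which include all 46, and called means an adjusted p under 0.05.

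The genes called between the genotypes in the edgeR fit of all 78 libraries, with no block, are Brca2, Mdm4 and Xrcc5. The bases around their transcription starts are shown for that reason. Fits with a replicate block gave different calls, described below. The table of RefSeq windows used, 250 bases before to 50 after the start (GRCm38.p6), matched 38 of the 46 genes, with 46 windows in all; not matched in it were Trp63, Rad50, Nbn, Xrcc2, Wrn, Prkdc, Fancd2 and Xpc. Each window was searched on both strands for CCAAT, then for GGGCGG, for TTTGGCGC and TTTCCCGC, and for the PLAG1 consensus. CCAAT was in 56.5% of the 46 windows against 37.4% of all 32851, and GGGCGG in 60.9% against 35.7%. TTTCCCGC was in 5 windows, 10.9% against 1.07%, and TTTGGCGC in 1, 2.17% against 0.514%. The PLAG1 consensus was in 21.7% of the windows against 19.2% of all, which is 10 windows of 9 genes. It is shorter than the de novo motif of the study, which searched a wider window, so that these shares cannot be set against its own. Capitals mark TTTCCCGC in the Brca2 window and CCAAT in the Xrcc5 window, both read on the opposite strand, and neither Mdm4 window holds any of these motifs. Brca2 lies at chr5:150522371-150522670 on the plus strand, Xrcc5 at chr1:72307171-72307470 on the plus strand, and Mdm4 has the windows chr1:133025367-133025666 and chr1:133030538-133030837, both on the minus strand.
Brca2: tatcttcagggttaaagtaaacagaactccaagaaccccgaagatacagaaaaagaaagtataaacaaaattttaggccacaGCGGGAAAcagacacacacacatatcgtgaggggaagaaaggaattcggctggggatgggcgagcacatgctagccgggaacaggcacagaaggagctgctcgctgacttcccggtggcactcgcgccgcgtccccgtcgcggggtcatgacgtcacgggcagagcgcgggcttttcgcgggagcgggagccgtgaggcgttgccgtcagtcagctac
Xrcc5: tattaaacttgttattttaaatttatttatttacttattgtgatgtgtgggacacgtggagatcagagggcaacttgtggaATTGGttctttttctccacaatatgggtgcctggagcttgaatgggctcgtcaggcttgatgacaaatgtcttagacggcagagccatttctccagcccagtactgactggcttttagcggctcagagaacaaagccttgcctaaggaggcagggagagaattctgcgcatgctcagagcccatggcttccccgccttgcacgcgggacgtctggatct
Mdm4, first window: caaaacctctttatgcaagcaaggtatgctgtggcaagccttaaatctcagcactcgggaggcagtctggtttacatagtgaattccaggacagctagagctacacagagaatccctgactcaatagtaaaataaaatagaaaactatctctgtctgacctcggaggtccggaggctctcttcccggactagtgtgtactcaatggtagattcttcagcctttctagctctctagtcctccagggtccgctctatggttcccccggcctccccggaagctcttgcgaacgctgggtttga
Mdm4, other window: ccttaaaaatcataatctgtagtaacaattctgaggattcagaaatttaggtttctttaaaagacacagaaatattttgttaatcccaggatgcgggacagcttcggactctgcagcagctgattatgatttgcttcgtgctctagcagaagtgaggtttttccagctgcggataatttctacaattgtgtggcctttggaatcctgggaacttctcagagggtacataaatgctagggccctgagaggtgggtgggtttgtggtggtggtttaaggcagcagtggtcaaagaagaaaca
A match describes these letters and was not tested as a binding site.

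A single gene, Mdm4, made up much of what the 46 genes contributed to the early libraries. Their summed CPM averaged 3517 in WT at MII (SD 640, n = 16), 3731 at 2c (SD 523, n = 11) and 1578 at 8c (SD 279, n = 15). Without Mdm4 the sums were 1902, 1355 and 1511. In matPlag1KO libraries the sums were 4057 at MII, 3301 at 2c and 1560 at 8c. A median of 41.5 of the 46 genes had a count in a WT MII library, 36 in a WT 2c library and 40 in a WT 8c library, beside the lower depth at 2c. The gene of highest mean CPM in WT was Mdm4 at MII and 2c and Apex1 at 8c, with Chek1, Brca2 and Trp53 next in the same order of stages. In the map of mean levels, Mdm4 stands out through MII and 2c and Apex1 at 8c.

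**Figure D1:**
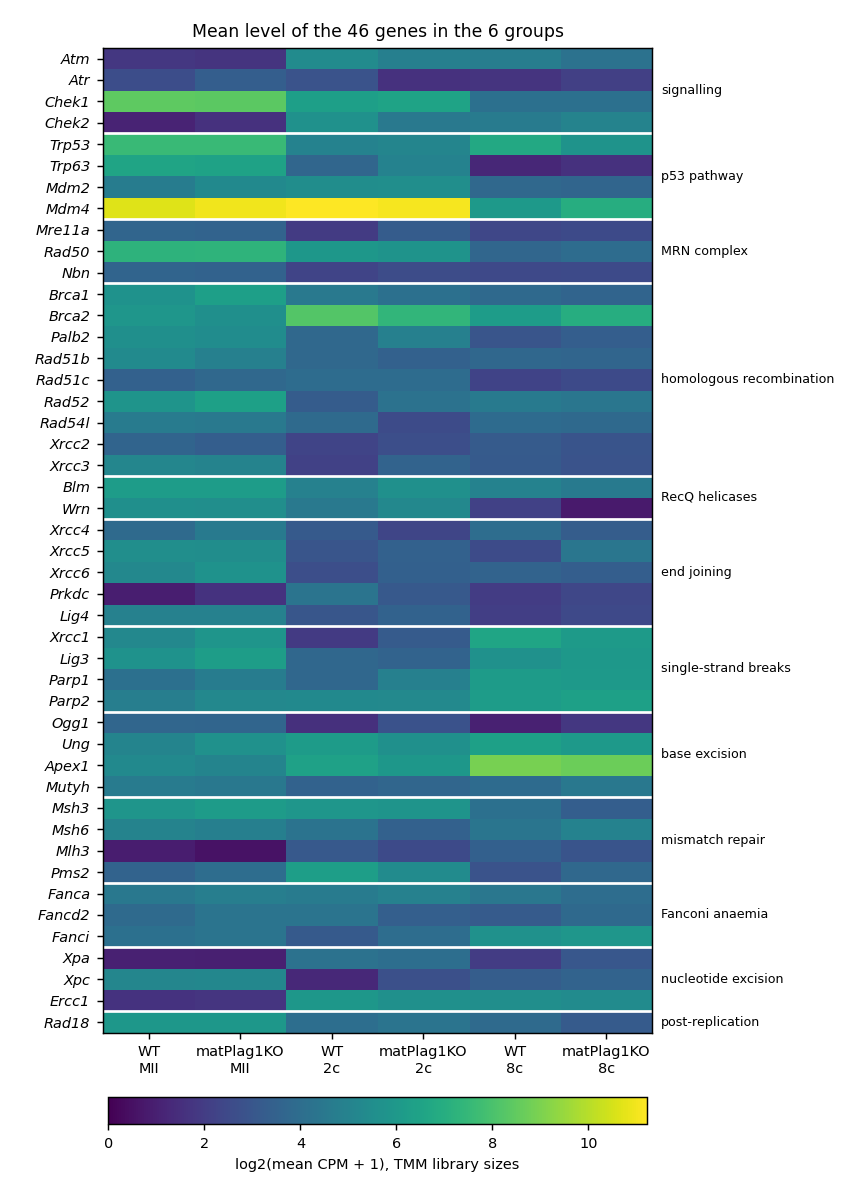
Each cell is the mean level of 1 of the 46 genes in 1 of the 6 groups, as log2 of mean CPM + 1 on TMM library sizes, with genes ordered by role. Mdm4 is the brightest line at MII and 2c and drops at 8c, Chek1 fades from MII to 8c, and Apex1 is brightest at 8c.

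Between MII and 2c most of the repair transcripts fell per oocyte or embryo. In WT 33 of the 46 genes fell on the spike-in scale and 7 rose, beside 51.3% and 14.1% of all genes tested, and their median log2 fold change was -2.77 beside -1.46 over all genes. In matPlag1KO 38 fell and 3 rose, beside 50.3% and 13.5% of all genes, with a median of -2.40 beside -1.42. On TMM scaling, which places the median of all genes near 0 (-0.03 in WT), 20 of the 46 fell and 11 rose in WT, beside 23.1% and 27.5% of all genes. The median of the 46 was then -1.01. In matPlag1KO 18 fell and 9 rose on TMM scaling, beside 19.3% and 29.1%, and the median was -0.71 beside 0.14 over all genes. Calls of the same direction on both scales numbered 20 lower and 7 higher in WT and 18 lower and 3 higher in matPlag1KO. The scales gave opposite calls for Mdm4 in WT and for Apex1 in matPlag1KO. The pool libA by itself gave 32 lower and 2 higher genes in WT, and libB 22 lower and 7 higher. For matPlag1KO libA gave 33 lower and 3 higher, and libB 32 lower and 0 higher by edgeR, with 1 higher at an unadjusted p under 0.05. Shares of all genes within 1 pool are not given. The falls came together with those of the oocyte markers, 9 of 9 of which fell on the spike-in scale in both genotypes, and the part of this general decline in the repair genes was not tested.

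Between 2c and 8c more repair genes rose than fell per embryo, at shares close to those of all genes. In WT 14 rose and 9 fell on the spike-in scale, beside 31.9% and 16.2% of all genes, with a median of 0.63 beside 0.53. In matPlag1KO 15 rose and 6 fell, beside 29.1% and 19.5%, with a median of 0.55 beside 0.30. On TMM scaling 8 rose and 13 fell in WT, beside 21% and 28.9% of all genes, and the median turned negative, -0.22 beside -0.12. In matPlag1KO 7 rose and 12 fell on TMM scaling, beside 21.2% and 30.3%, with a median of -0.17 beside -0.31. Both scales called the same 8 genes higher and 9 lower in WT, and 7 higher and 6 lower in matPlag1KO. The pool libA by itself gave 7 higher and 3 lower in WT, and libB 12 higher and 7 lower. For matPlag1KO libA gave 6 higher and 4 lower, and libB 10 higher and 5 lower. Shares of all genes within 1 pool are not given. The shares over both pools do not set the 46 genes apart from the rest, so that the results lie in single roles and genes. The MII to 2c and the 2c to 8c comparisons of a genotype share the 2c libraries, and their values are given side by side without a relation between them.

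**Figure D2:**
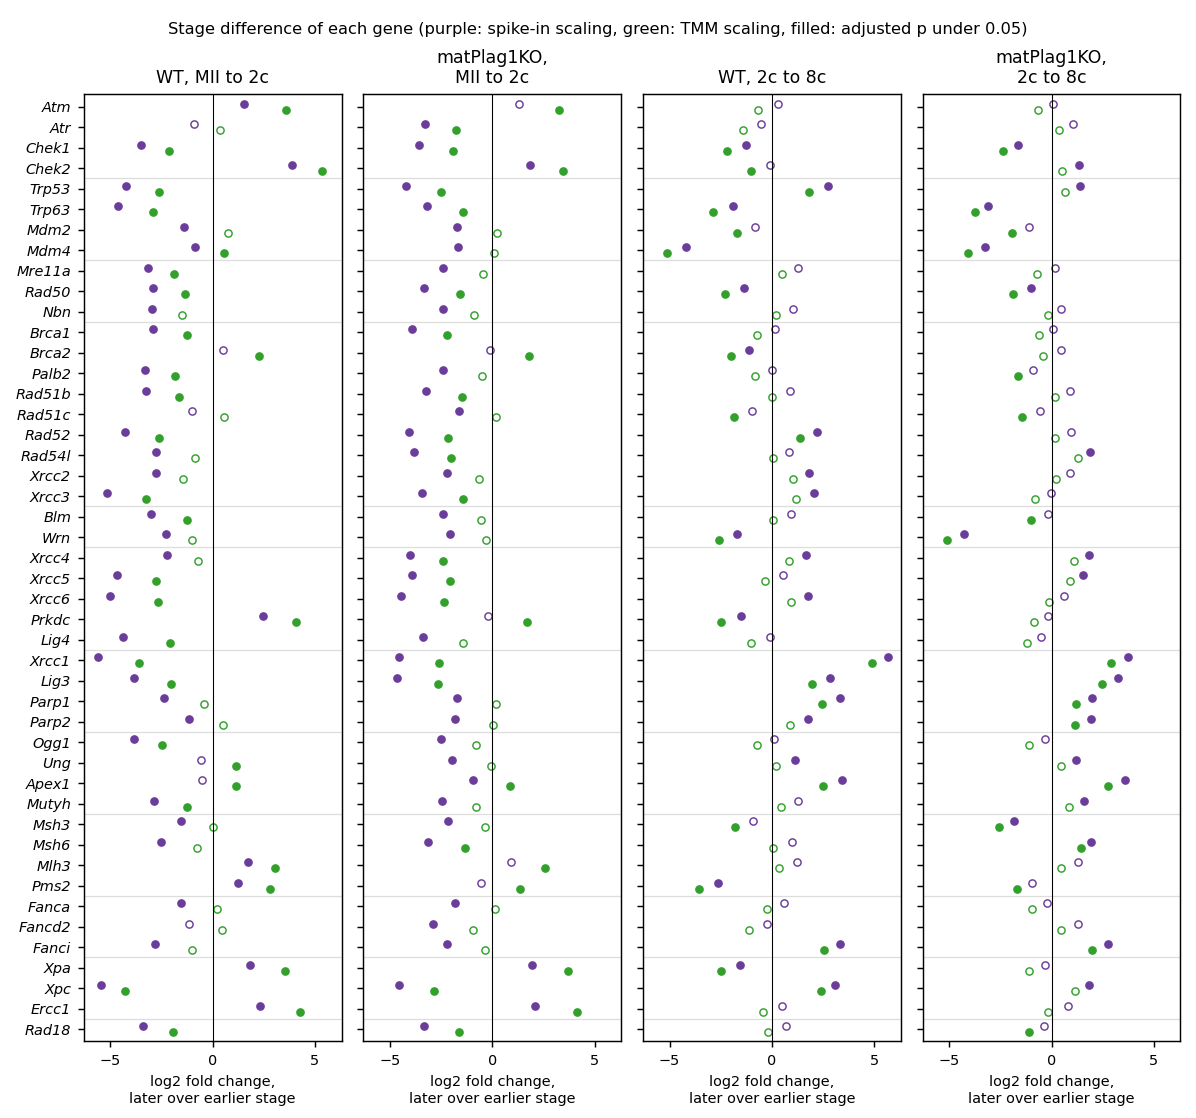
Points give the log2 fold change of each of the 46 genes, later over earlier stage, in WT and matPlag1KO, in purple on the spike-in scale and in green on TMM scaling, filled at an adjusted p under 0.05. Most filled points of the MII to 2c panels lie left of 0, with Atm, Chek2, Prkdc, Mlh3, Pms2, Xpa and Ercc1 right of it in WT on both scales and Brca2, Mdm4, Ung and Apex1 in green alone. The spike-in call of Mlh3 (1.74) was lost without WT 2c replicate 3 (1.42) or 8 (1.41). In the panels to the right, Xrcc1, Lig3, Parp1, Apex1 and Fanci lie right of 0 from 2c to 8c.

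Among the signalling kinases, the checkpoint kinases Chek1 and Chek2 moved in opposite directions after MII. Chek1, the effector of Atr at stalled replication forks, had a median of 17.0 per 1000 spike-in counts in WT MII oocytes (9.25 to 28.8), 1.68 at 2c (0.556 to 2.42) and 0.600 at 8c (0.0944 to 1.15). Among matPlag1KO libraries its medians were 24.4 (12.7 to 31.4), 1.22 (0.690 to 5.00) and 0.582 (0.0848 to 1.71). Every MII oocyte lay above every 2c embryo of its genotype. Chek1 fell by 3.49 on the log2 scale from MII to 2c in WT (SE 0.35, adjusted p = 1.09e-14) and by 1.25 from 2c to 8c (SE 0.32, adjusted p = 0.000736). Chek2, the effector of Atm at double-strand breaks, had a median of 0 in WT MII oocytes (0 to 0.253, a count in 6 of 16), 0.970 at 2c (0.182 to 2.31) and 0.793 at 8c (0.364 to 1.91). For matPlag1KO they were 0 (0 to 0.676, a count in 5 of 14), 0.510 (0.0817 to 0.945) and 1.12 (0.254 to 3.34). Chek2 was near absent from the egg and had a count in every 2c and 8c embryo, and the MII and 2c ranges overlap. It rose from MII to 2c by a log2 fold change of 3.87 in WT (SE 0.58, adjusted p = 1.91e-08) and 1.83 in matPlag1KO (SE 0.57, adjusted p = 0.00414). On TMM scaling the difference between the rises of the genotypes, tested as an interaction, was -1.90 (SE 0.81, adjusted p = 0.184). Of the remaining kinases, Atm had 1.52 from MII to 2c in WT, called (2.55 without WT MII replicate 5), and 1.33 in matPlag1KO, not called (adjusted p = 0.0527), with 3.59 and 3.28 on TMM scaling, both called. Atr was called lower in matPlag1KO (-3.28, or -3.90 without matPlag1KO 2c replicate 8), with -0.91 in WT on the spike-in scale and 0.34 on TMM scaling, neither called. Atm and Atr were named after their values were seen.

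In the p53 pathway all 4 genes fell from MII to 2c on the spike-in scale in both genotypes, beside 51.3% of all genes in WT and 50.3% in matPlag1KO, while on TMM scaling Trp53 and Trp63 fell and Mdm2 and Mdm4 had values above 0. The call of Mdm2 in WT, -1.42, was lost without WT MII replicate 5 (-0.22, adjusted p = 0.692). Trp53, which encodes p53, had a median of 8.41 per 1000 spike-in counts at MII in WT (3.65 to 41.1), 0.438 at 2c (0.115 to 1.41) and 3.05 at 8c (0.604 to 10.7). The matPlag1KO medians were 11.5 (7.90 to 30.9), 0.816 (0 to 1.57) and 1.43 (0.612 to 4.36). The MII and 2c ranges do not overlap in either genotype, while those of 2c and 8c do. The log2 fold change of Trp53 was -4.23 from MII to 2c in WT (SE 0.48, adjusted p = 1.71e-12) and 2.74 from 2c to 8c (SE 0.45, adjusted p = 2.87e-07). For matPlag1KO this rise was 1.39 (SE 0.45, adjusted p = 0.00761), and 0.65 on TMM scaling, not called. Trp63, the p53 relative that guards the oocyte genome, had medians of 3.70, 0.115 and 0 at MII, 2c and 8c in WT and 6.02, 0.429 and 0 in matPlag1KO. It fell at both steps, by 4.64 and 1.92 on the log2 scale in WT (adjusted p = 2.03e-09 and 0.0178) and by 3.20 and 3.09 in matPlag1KO. Without WT 2c replicate 5 the WT values were -5.30 and -1.26, the latter not called (adjusted p = 0.150). The later fall was 2.71 without WT 8c replicate 7 and 4.14 without matPlag1KO 8c replicate 12. By 8c a count of Trp63 remained in 4 of 15 WT and 4 of 11 matPlag1KO embryos.

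Mdm4, the inhibitor of p53 that lacks ubiquitin ligase activity of its own, was abundant until 2c and then fell steeply. Its median was 68.2 per 1000 spike-in counts in WT MII oocytes (45.8 to 232), 46.2 at 2c (30.7 to 82.3) and 1.95 at 8c (0.400 to 6.82). In matPlag1KO it was 130 (81.9 to 331), 41.4 (24.7 to 68.5) and 4.08 (2.06 to 12.6). No 8c embryo reached the lowest 2c embryo of its genotype. Mdm4 fell between 2c and 8c by 4.20 on the log2 scale in WT (SE 0.33, adjusted p = 1.49e-19) and by 3.27 in matPlag1KO (SE 0.36, adjusted p = 7.33e-13). From MII to 2c in WT it was called lower on the spike-in scale, at -0.87 (SE 0.31, adjusted p = 0.0101), and higher on TMM scaling, at 0.56 (SE 0.24, adjusted p = 0.0410): less of it per embryo and more of it as a share of the library.

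Of the MRN complex, which binds broken ends and activates Atm, 3 of 3 genes were lower at 2c than at MII on the spike-in scale in both genotypes, as were 51.3% of all genes in WT and 50.3% in matPlag1KO. On TMM scaling 2 of 3 were called lower in WT and 1 of 3 in matPlag1KO, beside 23.1% and 19.3% of all genes. Rad50, its ATP-binding subunit, had a median of 6.36 per 1000 spike-in counts at MII in WT (2.09 to 26.1), 1.11 at 2c (0.505 to 2.35) and 0.345 at 8c (0 to 1.14). In matPlag1KO the medians were 11.4 (6.39 to 19.3), 1.22 (0.430 to 1.80) and 0.294 (0 to 1.94), and the MII and 2c ranges do not overlap there. Rad50 fell by 2.89 on the log2 scale from MII to 2c in WT (SE 0.42, adjusted p = 5.85e-09) and by 1.36 from 2c to 8c (SE 0.40, adjusted p = 0.00303).

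In homologous recombination 7 of 9 genes fell from MII to 2c in WT and 8 of 9 in matPlag1KO on the spike-in scale, beside 51.3% and 50.3% of all genes. On TMM scaling 5 of 9 fell in each, beside 23.1% and 19.3%, while Brca2 rose and Rad51c was above 0 without a call. Brca2 was not called per spike-in count from MII to 2c, with medians of 2.49 per 1000 spike-in counts at MII in WT (1.3 to 21.1), 5.61 at 2c (3.45 to 8.13) and 2.35 at 8c (1.27 to 4.77). In matPlag1KO they were 2.71, 3.62 and 3.98. On TMM scaling it rose from MII to 2c by a log2 fold change of 2.29 in WT (SE 0.24, adjusted p = 1.43e-14) and 1.79 in matPlag1KO (SE 0.25, adjusted p = 1.17e-09). It was then called lower from 2c to 8c in WT, at -1.10 on the spike-in scale (SE 0.36, adjusted p = 0.00776), with 0.49 in matPlag1KO, not called. Xrcc3 was the gene of this group with the steepest fall in WT, from a median of 0.887 at MII (0.218 to 16.9) to 0 at 2c (0 to 0.263, a count in 5 of 11). Its log2 fold change was -5.16 (SE 0.83, adjusted p = 1.02e-07) in WT and -3.46 in matPlag1KO (SE 0.72, adjusted p = 2.45e-05). Without WT MII replicate 5 the WT value was -4.56. Medians of Xrcc3 at MII, 2c and 8c in matPlag1KO were 1.94, 0.119 and 0.102, and 0.160 in WT at 8c. Its gene model overlaps Klc1 on the other strand.

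Of the RecQ helicases, Blm, which unwinds recombination intermediates, had medians of 3.34, 0.431 and 1.08 per 1000 spike-in counts at MII, 2c and 8c in WT and 4.27, 1.06 and 0.772 in matPlag1KO. It fell from MII to 2c by 3.01 on the log2 scale in WT (adjusted p = 1.04e-06) and by 2.40 in matPlag1KO (-0.55 on TMM scaling, not called), and was not called from 2c to 8c on the spike-in scale. On TMM scaling Blm was called lower from 2c to 8c in matPlag1KO, at -1.02. Wrn, the Werner syndrome helicase, had a median of 1.85 at MII in WT (0.571 to 4.30), 0.365 at 2c (0 to 1.32) and 0 at 8c (0 to 0.853, a count in 6 of 15). The matPlag1KO medians were 2.87 (1.48 to 6.75), 0.750 (0.215 to 1.80) and 0 (0 to 0.150, a count in 3 of 11). The 2c and 8c ranges of Wrn are apart in matPlag1KO and overlap in WT. From 2c to 8c its log2 fold change was -4.26 in matPlag1KO (SE 0.69, adjusted p = 2.38e-07) and -1.72 in WT (SE 0.53, adjusted p = 0.00491; -2.40 without WT 8c replicate 7), and the interaction on TMM scaling was 2.51 (SE 0.90, adjusted p = 0.106).

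**Figure D3:**
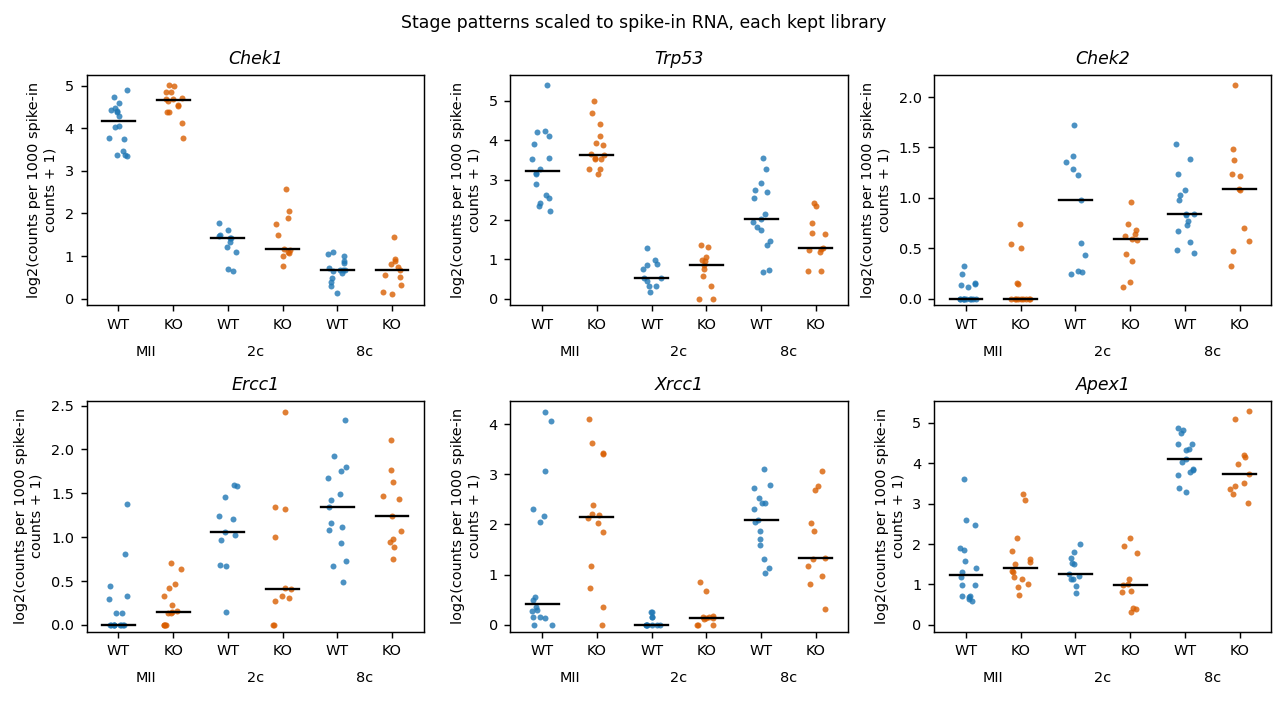
Each point is 1 kept library and each bar the median of its group, as log2 of counts per 1000 spike-in counts + 1, for Chek1, Trp53, Chek2, Ercc1, Xrcc1 and Apex1 in WT (blue) and matPlag1KO (KO, orange). Chek1 is high at MII alone, Trp53 and Xrcc1 are low at 2c, Chek2 and Ercc1 have their lowest medians at MII, and Apex1 is highest at 8c.

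In end joining, 4 of 5 genes fell from MII to 2c in each genotype, among them both subunits of the Ku ring that holds the broken ends, beside 51.3% of all genes in WT and 50.3% in matPlag1KO. On TMM scaling 3 of 5 fell in each, beside 23.1% and 19.3%. Xrcc5, which encodes Ku80, had a median of 1.62 per 1000 spike-in counts at MII in WT (0.372 to 26.2), 0 at 2c (0 to 0.599, a count in 5 of 11) and 0.130 at 8c (0 to 0.530). Its matPlag1KO medians were 3.42, 0.224 and 0.602. The WT ranges of MII and 2c overlap, and those of matPlag1KO do not. Its log2 fold change from MII to 2c was -4.67 in WT (SE 0.69, adjusted p = 1.14e-08) and -3.95 in matPlag1KO (SE 0.65, adjusted p = 2.01e-07). The highest WT oocyte on the spike-in scale is MII replicate 5, and without it the WT value was -3.88 (adjusted p = 7.45e-08). The pools differed too, at -7.47 in libA and -2.08 in libB in WT, both called. Prkdc, the kinase that the Ku ring recruits, went the other way in WT: its medians were 0 at MII (0 to 0.253, a count in 7 of 16), 0.303 at 2c (0 to 1.13, a count in 10 of 11) and 0.0792 at 8c (0 to 0.512, a count in 8 of 15). Its matPlag1KO medians were 0.0483, 0.125 and 0.170. It rose from MII to 2c by a log2 fold change of 2.48 in WT (SE 0.68, adjusted p = 0.00107). In matPlag1KO the value was -0.20 on the spike-in scale, not called, and 1.69 on TMM scaling (adjusted p = 0.0209). The interaction of Prkdc between 2c and MII on TMM scaling was -2.38 (SE 0.89, adjusted p = 0.123). The median of the kinase was thus highest at 2c in WT, where Xrcc5, Xrcc6, Xrcc4 and Lig4 were lower than at MII. In WT Xrcc6 and Lig4 stood at -5.03 and -4.37 from MII to 2c, and at -3.95 and -3.09 without MII replicate 5, all called, with Lig4 at -5.07 without 2c replicate 3. The step of Prkdc down to 8c, -1.54 (adjusted p = 0.0451), was not called without any 1 of 15 of the 26 libraries, WT 2c replicates 2, 9, 10, 11 and 14 and WT 8c replicates 1, 3, 4, 8, 10, 11, 12, 13, 14 and 15, at a highest adjusted p of 0.137, without WT 2c replicate 9 (-1.20).

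In repair of single-strand breaks all 4 genes fell from MII to 2c and all 4 rose from 2c to 8c, in both genotypes, on the spike-in scale. Of all genes 51.3% in WT and 50.3% in matPlag1KO fell at the earlier step, and 31.9% and 29.1% rose at the later one. On TMM scaling 2 of 4 fell in each genotype, beside 23.1% and 19.3% of all genes, with Parp2 above 0 in both and Parp1 above 0 in matPlag1KO without a call. The spike-in value of Parp1 in WT, -2.39 from MII to 2c, was -1.34 without MII replicate 5, called. Then 3 of 4 rose in WT and 4 of 4 in matPlag1KO, beside 21% and 21.2%. Xrcc1, the scaffold of this pathway, had a median of 0.337 per 1000 spike-in counts at MII in WT (0 to 18), 0 at 2c (0 to 0.202, a count in 4 of 11) and 3.28 at 8c (1.04 to 7.63). In matPlag1KO the medians were 3.46 (0 to 16.1), 0.107 (0 to 0.817) and 1.53 (0.249 to 7.42). WT MII oocytes differed by pool, with a mean of 66.8 CPM in libA and 5.66 in libB and a lowest value of 0 in each, and every WT 8c embryo lay above every WT 2c embryo. Xrcc1 had the lowest log2 fold change of the 46 genes from MII to 2c in WT, -5.60 (SE 0.88, adjusted p = 6.76e-08), and the highest from 2c to 8c, 5.70 (SE 0.89, adjusted p = 7.75e-08). The fall in WT was -6.23 within libA and -1.96 within libB, the latter not called (adjusted p = 0.0899) and it was the lowest in neither pool alone, with Xrcc5 at -7.47 in libA and Xpc at -5.91 in libB. In matPlag1KO the same steps gave -4.55 and 3.72 (SE 0.79 and 0.78). Lig3, the ligase that Xrcc1 holds, went from 1.82 at MII in WT (0.0835 to 23.3) to 0.111 at 2c (0 to 0.718) and 1.66 at 8c (0.850 to 5.00). In matPlag1KO it went from 4.29 (1.08 to 25.1) to 0.241 (0 to 0.588) and 1.27 (0 to 7.72). Its log2 fold change from MII to 2c was -3.85 in WT and -4.67 in matPlag1KO, and from 2c to 8c 2.84 and 3.26. Without WT MII replicate 5 the fall in WT was 3.23. Its model overlaps Rffl on the other strand. Parp2, one of the enzymes that mark the break with poly(ADP-ribose), had medians of 1.73, 0.598 and 2.64 in WT and 2.53, 0.773 and 2.98 in matPlag1KO. In WT its fall between the first 2 stages, 1.16 on the log2 scale, was not called without WT MII replicate 1, 3 or 5 or WT 2c replicate 9 (highest adjusted p 0.0742), nor within libB (-0.01).

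Base excision ended at a high level through Apex1, the endonuclease that cuts at abasic sites. Apex1 had a median of 1.37 per 1000 spike-in counts at MII in WT (0.501 to 11.2), 1.38 at 2c (0.722 to 3.0) and 16.2 at 8c (8.74 to 28.4). The matPlag1KO medians were 1.67 (0.656 to 8.47), 0.980 (0.238 to 3.43) and 12.2 (7.08 to 38.2). Every 8c embryo lay above every 2c embryo of its genotype. Apex1 rose between 2c and 8c by a log2 fold change of 3.41 in WT (SE 0.45, adjusted p = 7.33e-10) and 3.61 in matPlag1KO (SE 0.47, adjusted p = 4.28e-10). From MII to 2c in matPlag1KO it was called lower per spike-in count, at -0.96 (adjusted p = 0.0392), yet higher on TMM scaling, at 0.89 (adjusted p = 0.0228). The lower call was lost without any 1 of 11 of the 25 libraries, matPlag1KO MII replicates 1, 8 and 13 and 2c replicates 1, 4, 5, 6, 11, 12, 13 and 14, at a highest adjusted p of 0.142. Of the 4 genes of this role 2 rose from 2c to 8c in WT and 3 in matPlag1KO on the spike-in scale, beside 31.9% and 29.1% of all genes, and 1 in each on TMM scaling, beside 21% and 21.2%. The spike-in calls of Ung were lost without WT 8c replicate 9 (0.99, adjusted p = 0.0526) and without matPlag1KO 2c replicate 2 (1.08) or 10 (1.08) or 8c replicate 5 (1.06). The call of Mutyh in matPlag1KO was lost without 8c replicate 5 (1.22, adjusted p = 0.0914).

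Mismatch repair genes gave different counts by genotype and scale at the step from MII to 2c. Per spike-in count 2 of 4 were called higher and 2 lower in WT, beside 14.1% and 51.3% of all genes. The matPlag1KO calls were 0 higher and 2 lower by edgeR, beside 13.5% and 50.3%. On TMM scaling 2 of 4 were higher in each genotype, beside 27.5% and 29.1%. Lower calls on that scale were 0 in WT by edgeR and 1 in matPlag1KO, beside 23.1% and 19.3%. Pms2, which nicks the strand to be corrected, rose from MII to 2c in WT, from a median of 0.459 per 1000 spike-in counts (0 to 1.90) to 1.69 (0.539 to 2.64), and stood at 0.171 at 8c (0 to 0.667). Medians in matPlag1KO were 0.938 (0.229 to 3.46), 0.751 (0.361 to 2.13) and 0.416 (0.0979 to 0.873). The ranges of successive stages overlap in both genotypes, and the median is highest at 2c in WT and at MII in matPlag1KO. Its log2 fold change in WT was 1.24 at the first step (SE 0.45, adjusted p = 0.0134) and -2.63 at the next (SE 0.48, adjusted p = 3.78e-06). In matPlag1KO -0.53 and -0.97 were not called on the spike-in scale, against 1.37 and -1.70 on TMM scaling, both called. The interaction between 2c and 8c on TMM scaling was -1.85 (SE 0.62, adjusted p = 0.0816). Msh3, which recognises loops of unpaired bases, had medians of 3.03, 1.20 and 0.519 in WT and 4.90, 1.22 and 0.255 in matPlag1KO. It fell from MII to 2c by 1.55 on the log2 scale in WT (adjusted p = 0.000790), with 0.02 on TMM scaling, not called.

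In the Fanconi anaemia pathway, which handles crosslinks between strands, Fanci fell and then rose. Its median was 0.488 per 1000 spike-in counts at MII in WT (0 to 9.86), 0.101 at 2c (0 to 0.599) and 1.86 at 8c (0.567 to 3.24). In matPlag1KO the medians were 1.01 (0.289 to 5.64), 0.306 (0 to 0.834) and 1.94 (0.509 to 4.52). The 2c and 8c ranges overlap at their ends. Fanci fell from MII to 2c by 2.81 in WT, with -1.92 without WT MII replicate 5 and -1.01 on TMM scaling, not called. It then rose by a log2 fold change of 3.35 in WT (SE 0.62, adjusted p = 4.33e-06) and 2.76 in matPlag1KO (SE 0.61, adjusted p = 8.92e-05). Its model overlaps Polg on the other strand. The other members of this pathway, Fanca and Fancd2, were not called from 2c to 8c.

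Of the 3 nucleotide excision genes, 1 was lower and 2 were higher at 2c than at MII in each genotype on the spike-in scale, beside 51.3% of all genes lower and 14.1% higher in WT and 50.3% and 13.5% in matPlag1KO. Xpc, which finds the distorted helix, had a median of 1.33 per 1000 spike-in counts at MII in WT (0.243 to 5.23), 0 at 2c (0 to 0.12, a count in 3 of 11) and 0.339 at 8c (0 to 0.857). Medians in matPlag1KO were 1.77 (0.579 to 10.1), 0 (0 to 0.602, a count in 4 of 11) and 0.320 (0 to 1.02). Every WT MII oocyte lay above every WT 2c embryo. The log2 fold change of Xpc from MII to 2c was -5.45 in WT (SE 0.75, adjusted p = 1.48e-09) and -4.55 in matPlag1KO (SE 0.67, adjusted p = 1.29e-08), and it rose again by 3.09 and 1.82 to 8c, the latter 1.16 and not called on TMM scaling. In matPlag1KO the values without 2c replicate 1 were -5.34 and 2.62, and the rise was 1.54 and not called without 8c replicate 5 (adjusted p = 0.0631). Ercc1, a subunit of the nuclease that cuts 5′ of the lesion, had medians of 0 at MII (0 to 1.60, a count in 7 of 16), 1.08 at 2c (0.108 to 2.02) and 1.53 at 8c (0.400 to 4.06) in WT. In matPlag1KO they were 0.111 (0 to 0.627), 0.327 (0 to 4.40) and 1.37 (0.685 to 3.31). Ercc1 rose from MII to 2c by a log2 fold change of 2.33 in WT (SE 0.57, adjusted p = 0.000281) and 2.10 in matPlag1KO (SE 0.61, adjusted p = 0.00195), and its model overlaps Cd3eap on the other strand. Without WT MII replicate 5 the rise of Ercc1 was 3.09, and without matPlag1KO 2c replicate 4 it was 1.40. Xpa, which verifies the damage, had a count in 5 of 16 WT MII oocytes and 9 of 11 WT 2c embryos, with medians of 0 and 0.346, and 0.0863 at 8c. Its matPlag1KO medians were 0, 0.125 and 0.255. It rose by 1.84 in WT (SE 0.66, adjusted p = 0.0117) and 1.95 in matPlag1KO (SE 0.69, adjusted p = 0.0113), the latter 1.51 and not called without matPlag1KO 2c replicate 2 (adjusted p = 0.0573). From 2c to 8c it was called lower in WT, at -1.56 (adjusted p = 0.0430). That call was lost without any 1 of 17 of the 26 libraries, WT 2c replicates 2, 6, 8, 10, 13 and 14 and WT 8c replicates 1, 2, 3, 4, 5, 6, 8, 10, 11, 12 and 13, at a highest adjusted p of 0.0851. Rad18, the ubiquitin ligase of post-replication repair, fell from a median of 2.62 at MII to 0.222 at 2c in WT (log2 fold change -3.39, SE 0.49, adjusted p = 7.57e-09), from 4.11 to 0.259 in matPlag1KO, and stood at 0.455 and 0.278 at 8c. It was not called from 2c to 8c on the spike-in scale, and fell by 1.13 in matPlag1KO on TMM scaling.

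The overlapping models named with these genes are part of a wider limit: 12 of the 46 models overlap another gene, and since the strand used in counting is not stated, their reads cannot be told apart. The other 34 overlap none. Among the genes given above by value, Mdm2, Xrcc6, Lig4, Parp1, Ung, Mutyh and Mlh3 were named after their values were seen.

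Between the genotypes, MII oocytes showed 0 of the 46 genes called by edgeR, higher or lower, beside 0.309% and 0.472% of all genes. At an unadjusted p under 0.05 there was 1 gene, and DESeq2 called 0. The median log2 difference of matPlag1KO from WT was 0.01 over the 46 genes and 0 over all. At MII the same position (A1 to B8 in the titles) of libA and libB holds oocytes of opposite genotype. Deviations of such a pair from its group and pool means were correlated across 8418 genes, which are not independent replicates, at 0.148 to 0.782 in the 14 pairs. Against group means alone the lowest was -0.0562, with 12 of 14 above 0.1. A fit that takes each position as a replicate block, with a term for the pool, was therefore made beside the first. It called 4 of the 46 genes higher in matPlag1KO and 0 lower in 28 libraries, beside 3.99% and 0.915% of all genes. Mdm4 was 0.42 higher on the log2 scale (adjusted p = 0.000351) and Xrcc1 1.12 higher (adjusted p = 0.00118). Ung, which removes uracil from DNA, was higher by 0.76 (adjusted p = 0.0219) and Brca1, the partner of Brca2 in recombination, by 0.65 (adjusted p = 0.0220), both named after their values were seen. Without the block the same genes stood at 0.31, 0.57, 0.64 and 0.60. The median CPM of Mdm4 was 1552 in WT MII (933 to 3201) and 1926 in matPlag1KO (1043 to 3277), ranges that overlap widely. The oocyte markers moved along: 9 of 9 had higher values in matPlag1KO at MII, 0 of them called by edgeR and 3 at an unadjusted p under 0.05, with a median log2 difference of 0.61. Their summed CPM averaged 10468 in WT (4420 to 23819) and 14443 in matPlag1KO (4334 to 20792), with Oosp1 the most abundant (4445 and 5596) and 0 of the 9 without a count. Their part in the MII differences was not tested. Within libA the Mdm4 difference was 0.47 and within libB 0.18, and that of Xrcc1 0.20 and 2.59 (adjusted p = 0.00451 in libB). The pool libB by itself called 2 genes, Xrcc1 and Xrcc6, and libA 0 by edgeR, with 5 at an unadjusted p under 0.05. Shares of all genes within 1 pool are not given, so that these counts have none beside them.

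At 2c, with the libraries taken as independent, Brca2 was lower in matPlag1KO embryos. It was the 1 gene of the 46 called lower, beside 2.62% of all genes, and 0 were called higher by edgeR, beside 2.3%, with 8 at an unadjusted p under 0.05 and Brca2 alone called by DESeq2. The median log2 difference was 0.01 over the 46 genes and 0.12 over all, a share and a median that do not set the list apart. Brca2 had a median of 263 CPM in WT 2c embryos (208 to 425) and 148 in matPlag1KO ones (95.7 to 293). The highest matPlag1KO embryo reached into the WT range, and 1 of 11 lay above the WT median. The log2 difference was -0.83 (SE 0.26, adjusted p = 0.0429). Within libA it was -0.86 (adjusted p = 0.587) and within libB -0.87 (adjusted p = 0.157), with pool means of 270 and 304 CPM in WT and 155 and 172 in matPlag1KO. The call lay close to the threshold. It was lost without any 1 of 14 of the 22 libraries, which are WT 2c replicates 2, 3, 8, 9, 10 and 12 and matPlag1KO 2c replicates 1, 2, 5, 8, 10, 12, 13 and 14, at a highest adjusted p of 0.0739 and log2 differences from -0.94 to -0.76 over all 22. It was also lost with all libraries kept (-0.73), with median-ratio size factors (-0.80), with spike-in scaling (-0.68) and in limma with the position as a replicate block (-0.75, adjusted p = 0.0702), described below, and over these alternatives its adjusted p ran from 0.00444 to 0.587. Fellow genes of the recombination role were not called in the edgeR fit of all 78 libraries: Brca1, named after its values were seen, had a difference of -0.37 (adjusted p = 0.688) and Xrcc3 of 1.68 (adjusted p = 0.195).

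At 8c, with the libraries taken as independent, Mdm4 and Xrcc5 were higher in matPlag1KO embryos, 2 of the 46 genes beside 1.21% of all, and 0 were lower by edgeR, beside 0.527%, with 8 at an unadjusted p under 0.05. DESeq2 called 4, adding Brca2 and Trp53, with no share of all genes beside its count. The median log2 difference was 0.02 over the 46 genes and 0 over all. Mdm4 had a median of 53.4 CPM in WT 8c embryos (16.1 to 181) and 108 in matPlag1KO ones (66.5 to 276). All 11 matPlag1KO embryos lay above the WT median, and the ranges overlap. The log2 difference was 0.90 (SE 0.25, adjusted p = 0.0395), with pool means of 61.8 and 71.6 CPM in WT and 125 and 128 in matPlag1KO for libA and libB. Within libA it was 0.97 (adjusted p = 0.496) and within libB 0.84 (adjusted p = 0.308). The Mdm4 call was lost without any 1 of 14 of the 26 libraries, which are WT 8c replicates 1, 2, 3, 5, 6, 8, 9, 11, 12 and 13 and matPlag1KO 8c replicates 1, 4, 9 and 13. The adjusted p was then at most 0.125, reached without matPlag1KO 8c replicate 1 at a log2 difference of 0.73. It was also lost with all libraries kept (0.83) and with spike-in scaling (0.93), and over the alternatives its adjusted p ran from 0.0106 to 0.496.

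Xrcc5 had a median of 4.19 CPM in WT 8c embryos (0 to 11.5) and 19.2 in matPlag1KO ones (0 to 65.5). A count was found in 11 of 15 WT embryos, 33 counts in all, and in 10 of 11 matPlag1KO embryos, 71 counts in all. Of the matPlag1KO embryos 10 lay above the WT median and 1 was at 0 with 4 of the WT embryos. The log2 difference of Xrcc5 was 1.89 (SE 0.49, adjusted p = 0.0235). Within libA it was 2.44 (adjusted p = 0.213) and within libB 1.42 (adjusted p = 0.430), with pool means of 3.46 and 6.08 CPM in WT and 22.5 and 17.4 in matPlag1KO. The call of Xrcc5 was lost without 1 of 26 libraries, matPlag1KO 8c replicate 4, at 1.58 (adjusted p = 0.0792). It was also lost with spike-in scaling (1.77), and over the alternatives its adjusted p ran from 0.00648 to 0.430. Xrcc6, the other Ku subunit, named after its values were seen, was not called between the genotypes at 8c. Brca2 stood at a median of 67.3 CPM in WT (38.8 to 103) and 126 in matPlag1KO (41.8 to 270), a log2 difference of 0.79 that missed the threshold (SE 0.24, adjusted p = 0.0619), with 7 of 11 matPlag1KO embryos above the WT median. Trp53 had medians of 98.5 CPM in WT (16.7 to 285) and 42.9 in matPlag1KO (19.5 to 88.7), a log2 difference of -1.01 (SE 0.33, adjusted p = 0.0832).

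Both 8c calls were lost once likeness by position was taken into account. At 8c the same position of libA and libB holds embryos of the same genotype in 12 of 12 pairs, and their deviations from group and pool means were correlated at 0.104 to 0.416. Against group means alone the lowest was 0.00316, with 7 of 12 above 0.1. A limma fit of the 26 libraries with a term for the pool called Mdm4 at 1.05 (adjusted p = 0.0399) and Xrcc5 at 1.82 (adjusted p = 0.0375), beside 1.85% of all genes higher and 0.587% lower. With the position added as a random replicate block (correlation 0.221) limma called 0 of the 46, beside 0.594% and 0.176%, with 5 at an unadjusted p under 0.05. Mdm4 then stood at 1.05 (adjusted p = 0.0752) and Xrcc5 at 1.85 (adjusted p = 0.0770), so that the sizes stayed close and the error grew. At 2c 6 of 8 pairs are of the same genotype, and the 8 were correlated at 0.0248 to 0.262, or from -0.128 against group means alone, with 3 of 8 above 0.1. There limma called 2 of the 46 genes lower without the block, Brca2 and Rad54l, beside 1.96% of all genes higher and 2.71% lower, and 1 with it, Rad54l, beside 1.28% and 1.89%. The block took Brca2 from -0.79 (adjusted p = 0.0441) to -0.75 (adjusted p = 0.0702). Rad54l, a motor protein of recombination named after its values were seen, was lower by 1.68 with the block (adjusted p = 0.0330), with medians of 11.2 CPM in WT and 0 in matPlag1KO, and was not called by edgeR (-1.32). Without matPlag1KO 2c replicate 12, edgeR called Rad54l at 2c. Its model overlaps Lrrc41 on the other strand. These limma fits, and the fits between stages that leave out 1 library, were chosen after seeing the data.

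**Figure D4:**
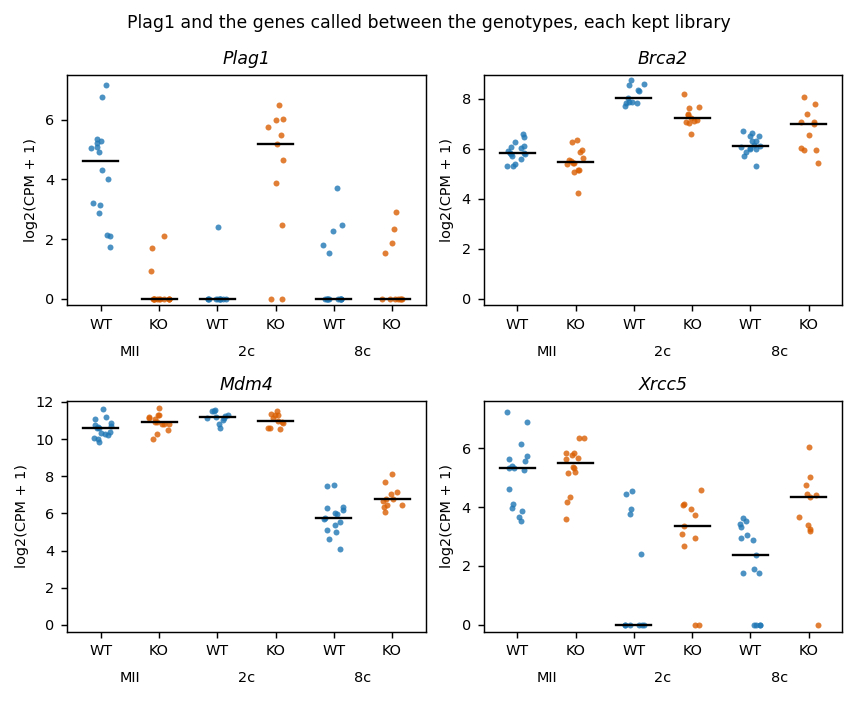
Each point is 1 kept library and each bar the median of its group, as log2 of CPM + 1, for Plag1, Brca2, Mdm4 and Xrcc5 in WT (blue) and matPlag1KO (KO, orange). Plag1 is high in WT at MII and in matPlag1KO at 2c, Brca2 is lower in matPlag1KO at 2c and spreads upward at 8c, and Mdm4 and Xrcc5 are higher in matPlag1KO at 8c.

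The genotype difference of Brca2 differed between 2c and 8c. Tested as an interaction, the difference at 2c minus that at 8c was -1.62 on the log2 scale (SE 0.35, adjusted p = 0.00569), the 1 of 46 genes called in either direction, beside 2.3% of all genes, with 9 at an unadjusted p under 0.05. Brca2 was called in each of the 48 fits that leave out 1 library of the 4 groups, with values from -1.74 to -1.44. With spike-in scaling it was -1.59 and not called (adjusted p = 0.123), and over all alternatives the adjusted p ran from 6.54e-05 to 0.123. In limma with the position as a replicate block it was -1.35 (adjusted p = 0.0259), again the 1 gene called, beside 2.36% of all genes, against 3 without the block, beside 3.72%. DESeq2 called 3 genes here, Brca2, Mdm4 and Pms2, with no share of all genes beside its count. Mdm4 had an interaction of -1.07 by edgeR (SE 0.36, adjusted p = 0.0856). At MII Brca2 had a median of 55.3 CPM in WT (38.1 to 94.3) and 43.6 in matPlag1KO (17.5 to 80.3), a log2 difference of -0.34 (SE 0.22, adjusted p = 0.679). Between 2c and MII 0 of the 46 genes were called by edgeR and 0 by DESeq2, beside 3.31% of all genes, with 9 at an unadjusted p under 0.05. These interactions share the 2c libraries with each other and with the 2c comparison.

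**Figure D5:**
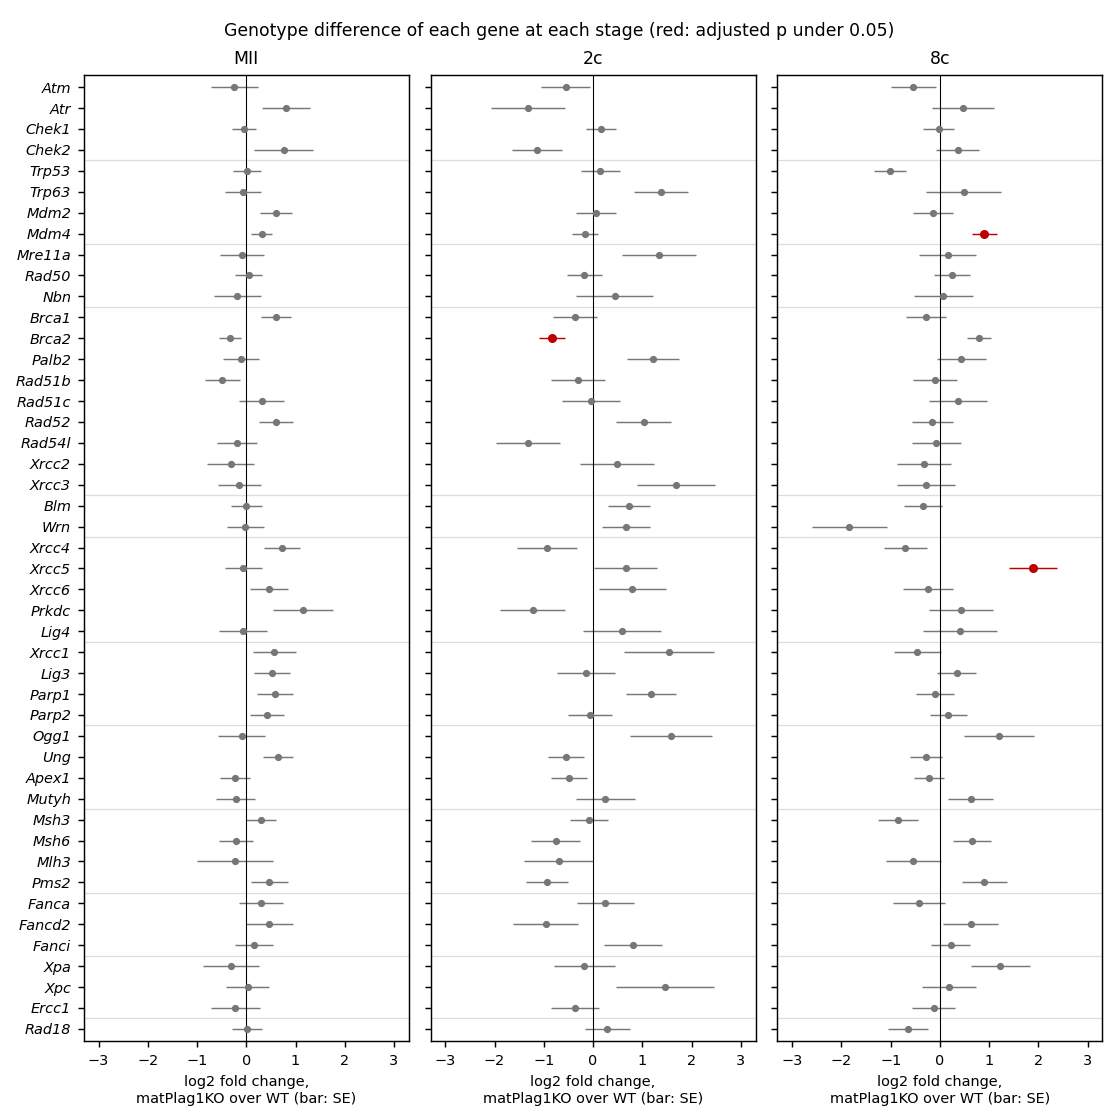
Points give the log2 fold change of matPlag1KO over WT for each of the 46 genes at MII, 2c and 8c on TMM scaling, and bars the SE, with red for an adjusted p under 0.05. Red marks Brca2 at 2c and Mdm4 and Xrcc5 at 8c.

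Other genes of the same pathways, 98 in the table with 96 tested, gave the setting of these results. Their genotype calls are from the edgeR fit with the libraries taken as independent and no block for position. At MII 0 were called in either direction by edgeR, with 8 at an unadjusted p under 0.05. At 2c 1 was higher and 3 were lower in matPlag1KO (1.04% and 3.12%), near the 2.3% and 2.62% of all genes. Poli, a translesion polymerase, had 8 counts in 6 of 11 matPlag1KO 2c embryos and 0 in 11 WT ones, which makes it at least 2.36-fold higher if WT is set to 3 counts in all (adjusted p = 0.0439). Nthl1, a glycosylase of oxidised pyrimidines, was lower by a log2 difference of -3.05 (SE 0.76, adjusted p = 0.00933), with a median of 7.07 CPM in WT (0 to 49.3) and 0 in matPlag1KO (0 to 8.16). Rpa2, a subunit of the single-strand binding complex named after its values were seen, was also lower, at -1.42 (adjusted p = 0.00409), with medians of 430 CPM in WT (144 to 585) and 140 in matPlag1KO (60.0 to 248).

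At 8c 2 of these other genes were higher and 1 was lower in matPlag1KO (2.08% and 1.04%), beside 1.21% and 0.527% of all genes. These calls too take the libraries as independent. In limma at 8c, the position as a block took the calls over all genes from 1.85% higher and 0.587% lower to 0.594% and 0.176%. Trp53bp1, which steers breaks towards end joining, was higher by a log2 difference of 1.16 (SE 0.30, adjusted p = 0.0254), with medians of 18.2 CPM in WT (2.38 to 41.9) and 42.9 in matPlag1KO (6.40 to 60.9). Topbp1, an activator of Atr, was higher by 1.08 (SE 0.29, adjusted p = 0.0304), with medians of 107 (42.2 to 155) and 211 (103 to 347). Neil1, another glycosylase, had 12 counts in 4 of 15 WT embryos and 0 in 11 matPlag1KO ones, which makes it at least 2.23-fold lower if matPlag1KO is set to 3 counts in all (adjusted p = 0.0467). From MII to 2c 62 of the 96 were lower and 7 higher in WT on the spike-in scale (64.6% and 7.29%, beside 51.3% and 14.1% of all genes), and 29 lower and 21 higher on TMM scaling (30.2% and 21.9%, beside 23.1% and 27.5%). The matPlag1KO numbers were 69 lower and 3 higher (71.9% and 3.12%, beside 50.3% and 13.5%), and 39 lower and 20 higher on TMM scaling (40.6% and 20.8%, beside 19.3% and 29.1%). From 2c to 8c in WT 36 were higher and 9 lower (37.5% and 9.38%, beside 31.9% and 16.2%), against 19 higher and 21 lower on TMM scaling (19.8% and 21.9%, beside 21% and 28.9%). For matPlag1KO 33 were higher and 5 lower (34.4% and 5.21%, beside 29.1% and 19.5%), against 19 higher and 13 lower on TMM scaling (19.8% and 13.5%, beside 21.2% and 30.3%).

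Targets of p53, a list of 20 with 19 tested, rose more often than they fell from MII to 2c, the step at which Trp53 itself fell. In each genotype 8 were higher and 3 lower on the spike-in scale, with a median log2 fold change of 1.00 in WT and 1.24 in matPlag1KO, where 14.1% and 13.5% of all genes were higher and 51.3% and 50.3% lower. On TMM scaling 12 were higher and 1 lower in WT, and 13 higher and 1 lower in matPlag1KO, with medians of 2.28 and 2.42, beside 27.5% and 29.1% of all genes higher and 23.1% and 19.3% lower. The step from 2c to 8c depended on the scale. Per spike-in count 9 were higher and 2 lower in WT, and 7 higher and 2 lower in matPlag1KO, with medians of 0.71 and 0.38, beside 31.9% and 29.1% of all genes higher and 16.2% and 19.5% lower. On TMM scaling 8 were higher and 5 lower in WT, and 6 higher and 5 lower in matPlag1KO, with medians of -0.21 and -0.35, beside 21% and 21.2% of all genes higher and 28.9% and 30.3% lower. The genotype comparisons of these targets took the libraries as independent. In matPlag1KO 0.309% of all genes were called higher and 0.472% lower at MII, 2.3% and 2.62% at 2c and 1.21% and 0.527% at 8c. The same shares stand beside the marker calls below. Of the p53 targets edgeR called 0 at MII and 0 at 2c, with 2 and 1 at an unadjusted p under 0.05. At 8c it called 1. That gene is Perp, named after its values were seen, with a median of 40.7 CPM in WT 8c embryos (2.77 to 141) and 3.2 in matPlag1KO ones (0 to 10.7), a log2 difference of -3.53 (SE 0.57, adjusted p = 5.03e-05). The 8-cell markers moved beside these 8c differences: 8 of 8 had lower values in matPlag1KO, 3 of them called, with a summed CPM of 7875 on average in WT and 6407 in matPlag1KO and Dppa5a the most abundant (6138 and 5500). At 2c the sum of the same markers was 1449 in WT and 759 in matPlag1KO, with 1 called lower. That sum follows Dppa5a (1220 and 373), while 6 of the 8 had values above 0 and the median log2 difference was 0.26. The summed oocyte markers averaged 3456 CPM in WT and 4842 in matPlag1KO 2c embryos, with 1 of 9 called higher and 0 lower. At 8c they averaged 135 and 119, with 1 of 9 called lower and 0 higher, and with all 9 found in WT and Figla at 0 in matPlag1KO. The summed 2-cell markers averaged 318 CPM in WT and 408 in matPlag1KO 2c embryos. All 5 of those tested had log2 differences above 0, with a median of 0.61. Of these, 0 were called by edgeR and 1 was at an unadjusted p under 0.05. The part of these oocyte, 2-cell and 8-cell markers in the calls of Brca2, Mdm4 and Xrcc5 was not tested.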

How the data were processed

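Gene counts and spike-in counts of 90 libraries were used as deposited; the authors joined reads by molecular tag, mapped them to mm9 with TopHat and counted them with HOMER, versions not stated. Libraries with a median CPM under 1 were left out, and the genes tested had 1 CPM or more in 5 or more of the rest. One edgeR model held all 6 groups (version 4.0.16, R 4.3.3; quasi-likelihood F test, Benjamini-Hochberg adjusted over all genes tested), with TMM factors for genotypes and interactions and the spike-in total as library size for stages. SE is the log2 fold change over the square root of F. Libraries at the same position of both pools were checked for likeness across genes with at least 10 CPM. Position was a block term in edgeR at MII and a random block in limma 3.58.1 (voom) at 2c and 8c. DESeq2 1.42.0, other scalings, filters, each pool alone and each library left out were tried. Promoter sequences are from RefSeq. Figures used matplotlib 3.10.9. Members and gene lists were chosen with earlier results of these data known. Named members are those called between genotypes, the 3 highest and 3 lowest called in each stage comparison, the 2 most abundant in each WT stage and the most abundant of each role.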

Additional observations from a re-analysis of the deposited data

Results flagged for a closer look

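The genotype difference of Brca2 differed between 2c and 8c: the difference of matPlag1KO from WT at 2c minus that at 8c was -1.62 on the log2 scale (SE 0.35, adjusted p = 0.00569, edgeR interaction by quasi-likelihood). With spike-in scaling the interaction was not called. The 2c difference by itself lost its call without any 1 of 14 of the 22 libraries, and the 8c difference was not called. Brca2 stood below the WT median in 10 of 11 matPlag1KO embryos at 2c and above it in 7 of 11 at 8c. Plag1 counts and the markers of stage differ between the genotypes along with it, and their part was not tested.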

How the results depend on the processing

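Of 93 other settings for the counts of members, 68 stayed within 1.5 times the reported count; of 30 for the log2 fold changes of the genotype calls and the interaction, 17 kept the call. On TMM scaling Mdm4 in WT went from -0.87 to 0.56 and Apex1 in matPlag1KO from -0.96 to 0.89 (MII to 2c), all called. Between the genotypes at MII, libB alone called 2 and the position as a replicate block 4, against 0. At 2c, 0 were called with all libraries kept, in libA alone, with median-ratio size factors and with spike-in scaling in edgeR (7, 3, 7 and 5 at an unadjusted p under 0.05), against 1. At 8c, 1 was called with all libraries kept, 0 in libA alone, libB alone and with spike-in scaling (5, 8 and 5 unadjusted), and 4 by DESeq2, against 2. From MII to 2c in WT, libA alone gave 2 higher and TMM 11 higher and 20 lower, against 7 and 33; in matPlag1KO libB alone gave 0 higher (1 unadjusted) and TMM 9 higher and 18 lower, against 3 and 38. From 2c to 8c in WT, libA alone gave 7 higher and 3 lower and TMM 8 higher and 13 lower, the balance reversed, against 14 and 9; in matPlag1KO libA alone gave 6 higher and TMM 7 higher and 12 lower, against 15 and 6. The interaction of 2c with 8c gave 0 with spike-in scaling (5 unadjusted) and 3 by DESeq2, against 1. Chosen after seeing the data, limma with a term for the pool called 2 at 2c and 3 in the interaction, and with the position as a replicate block 0 at 8c (5 unadjusted); leaving out each library in turn gave 0 to 2 at 2c, 0 to 3 at 8c and 1 to 2 in the interaction, and between stages at most from 15 to 10 higher (2c to 8c in matPlag1KO). Over the other alternatives Brca2 at 2c ran from -0.87 to -0.68, Mdm4 at 8c from 0.83 to 1.05 and Xrcc5 at 8c from 1.42 to 2.44. Fits of 1 pool hold fewer libraries, and the other causes were not tested. Among the alternatives, shares of all genes are given for the TMM stage fits, the replicate blocks and limma alone. Counts from the other alternatives cannot be set against such shares. Depth limits low counts most at 2c.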
